A study of Mus musculus with 8 samples.

Results

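The 65 genes described here carry symbols made of Zfp9 and a further pair of digits, chosen by that pattern alone from the gene symbols listed in the count tables, which hold 25526 symbols in all. The libraries were made from aortas of male mice that carry one Fbn1 allele with the C1041G substitution (Fbn1C1041G/+), a mouse model of Marfan syndrome, and were compared between 4 libraries at 12 weeks and 4 at 2 years of age. Every mouse in both groups carries the mutant allele in all its cells, so the comparison is of age within the mutant genotype. The sample names differ in form between the ages. Collection or library preparation that differed with age could not be told apart from age. The series text sets the growing aneurysms of the young animals against the growth-arrested aneurysms of the old ones. Nothing in the labels says more than that the samples are separate, so p-values measure the spread between these samples.

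Most of these genes encode proteins with a KRAB domain and a row of C2H2 zinc fingers. The fingers bind DNA, many of them at transposable elements, and the KRAB domain recruits the scaffold protein Trim28, which brings the histone methyltransferase Setdb1 and heterochromatin proteins to the bound site. Many of these genes arose by repeated local duplication in rodents and lie in clusters, some of which hold near-identical copies. Some clusters, that on chromosome 4 among them, have been studied for silencing of retrotransposons in mouse embryonic stem cells.

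Of the 65 genes, 63 matched a coding transcript by symbol in the GENCODE M21 annotation of the GRCm38 build. The translated transcripts of 58 genes held a KRAB-type motif (D or E, then V, and F and then EW further on). The number of C2H2 finger motifs ran from 0 to 21 per protein with a median of 11, and 3 genes had no match to the finger motif used. Near-identity was measured as the share of a transcript's 100-nt windows that also stand in a transcript of another gene. Its median was 5.60%, and 17 genes shared no window. Counts of genes that share many windows depend on how reads with several matches were assigned, which is not given in the sources used here.

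The promoters of a subset shared a run of letters that few other genes hold, and are shown for that reason. RefSeq promoter sequences (GRCm38.p6, from 250 bases before to 50 after each annotated start) were at hand for 53 of the 65 genes. A block of 11 letters, CTGCCAGTCAG, was chosen after these promoters had been read. It was the run of that length held by the largest number of them, ties being settled by alphabet. The choice therefore favoured a high share in the 53. It was found in 16 of the 53 (30.2%) on searching both strands. It stood in 1 of 248 promoters (0.403%) of other Zfp genes with numbered symbols and in 71 of 27025 promoters (0.263%) of all genes, the 16 among them. All 16 carriers had it on the sense strand. Its first letter lay 9 to 89 bases before the start, with a median of 43. In Zfp950, at 9 bases, the block runs across the start. The stretches below run from 140 bases before the start to 10 after it, 5′ to 3′ on the gene's strand, and capitals mark the block and the letters CCAAT on either strand. Of the 13 carriers tested, 7 were lower at 2 years and 0 higher, beside 26.2% and 25.8% of all genes tested. The first 5 stretches belong to the carriers with the smallest p, all lower at 2 years. Zfp931 is a carrier that was not called.
Zfp932, chr5:109996370-109996519, plus strand: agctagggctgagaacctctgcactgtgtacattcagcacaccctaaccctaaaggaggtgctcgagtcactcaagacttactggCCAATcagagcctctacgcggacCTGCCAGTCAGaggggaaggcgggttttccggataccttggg
Zfp950, chr19:61140831-61140980, minus strand: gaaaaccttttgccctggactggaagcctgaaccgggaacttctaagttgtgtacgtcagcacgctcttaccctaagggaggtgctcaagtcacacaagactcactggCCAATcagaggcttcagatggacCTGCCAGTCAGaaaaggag
Zfp977, chr7:42592536-42592685, minus strand: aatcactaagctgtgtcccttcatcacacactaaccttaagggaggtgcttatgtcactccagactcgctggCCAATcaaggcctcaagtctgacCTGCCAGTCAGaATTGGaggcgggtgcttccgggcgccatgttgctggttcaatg
Zfp975, chr7:42692709-42692858, minus strand: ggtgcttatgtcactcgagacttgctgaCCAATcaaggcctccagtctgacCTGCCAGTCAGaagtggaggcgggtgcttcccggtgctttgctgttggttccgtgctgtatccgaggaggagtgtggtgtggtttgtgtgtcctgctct
Zfp970, chr2:177464602-177464751, plus strand: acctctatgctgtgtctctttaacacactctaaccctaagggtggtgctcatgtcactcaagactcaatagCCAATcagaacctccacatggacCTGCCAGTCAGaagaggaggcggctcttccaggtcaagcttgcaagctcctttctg
Zfp931, chr2:178078416-178078565, minus strand: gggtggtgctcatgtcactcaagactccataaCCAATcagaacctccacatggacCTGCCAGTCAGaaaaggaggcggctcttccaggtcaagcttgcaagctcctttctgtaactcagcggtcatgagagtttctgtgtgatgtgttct

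CCAAT, counted on both strands, was in 75.5% of the 53 promoters, in 47.6% of those of other numbered Zfp genes and in 41.1% of all. The GC box GGGCGG was in 34.0%, 49.6% and 38.2% of the same 3 sets. The TATA box letters TATAAA were in 0 of the 53 promoters, in 10.1% of those of other numbered Zfp genes and in 15.7% of all. Zfp942 and Zfp943 on chromosome 17 start 94 bases apart and are transcribed away from each other. The stretch between their starts is shown on the plus strand because both genes were lower at 2 years, with the GC box of the minus strand in capitals.
Zfp942 to Zfp943, chr17:21962465-21962558: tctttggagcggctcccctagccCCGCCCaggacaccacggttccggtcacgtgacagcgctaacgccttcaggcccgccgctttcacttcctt

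Library totals ran from 23622803 to 27417541 counts at 12 weeks and from 16251986 to 33880690 at 2 years, and 13978 genes passed the expression filter and were tested. Values are given in CPM, counts scaled to the TMM-adjusted size of each library. The summed level of the smooth muscle markers was 27168 to 32583 CPM at 12 weeks and 15616 to 24378 CPM at 2 years, and all 6 of these markers of the labelled tissue passed the filter. The macrophage markers summed to 402.2 to 546.7 CPM against 1641 to 2105 CPM, the T and NK cell markers to 4.18 to 10.04 CPM against 38.6 to 61.4 CPM, with Trac at 0 counts in both groups, and the B and plasma cell markers to 1.58 to 2.44 CPM against 236.4 to 1220 CPM. The heart muscle markers summed to 220.5 to 1140 CPM against 87.3 to 173.0 CPM. Within these muscle sums the markers did not all move alike. Log2 fold changes, 2 years over 12 weeks, ran from -1.72 to 0.15 in the 6 smooth muscle markers. They ran from -5.18 to 0.55 in the 6 heart muscle markers tested. In each list 5 were below 0, and those above 0 were Tagln and Tnnt2. Tnnt2 had 7265 counts at 12 weeks and 10940 at 2 years. The sums of the endothelial, fat and fibroblast markers overlapped between the ages. In tissue RNA of this kind, fewer cells of a type and less RNA per cell cannot be told apart, and the part of these cell type differences in the results below was not tested.

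Of the 65 genes, 49 passed the filter and were tested. A further 4, Zfp936, Zfp957, Zfp997 and Zfp998, had 0 counts in every library. The other 12 had between 1 and 42 counts over all 8 libraries and were not tested. The largest of these totals, 42 counts, was shared by Zfp972, with 17 counts at 12 weeks and 25 at 2 years, and Zfp981, with 36 against 6. Zfp988 had 15 counts against 1. Zfp981 and Zfp988 were called lower when no filter was applied. The untested genes lay mostly in the chromosome 4 cluster, of whose 16 genes 7 were tested. The tested genes were weakly expressed, with a median level of 8.42 CPM against 22.1 CPM over all genes tested.

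At 2 years, 24 of the 49 tested genes were lower and 2 were higher (edgeR quasi-likelihood test, adjusted p below 0.05). Over all 13978 genes tested, 26.2% were lower and 25.8% higher, together 52.0%. The log2 fold changes of the 49 genes, 2 years over 12 weeks, ran from -2.42 to 0.91 with a median of -0.51, beside a median of -0.01 over all genes. They were below 0 in 40 of the 49 genes and in 50.3% of all genes. Of the 23 genes that were not called, 16 had a log2 fold change below 0. The groups of libraries did not overlap in 17 genes that were lower at 2 years and in 3 that were higher, beside 25.3% and 24.3% of all genes.

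**Figure D1:**
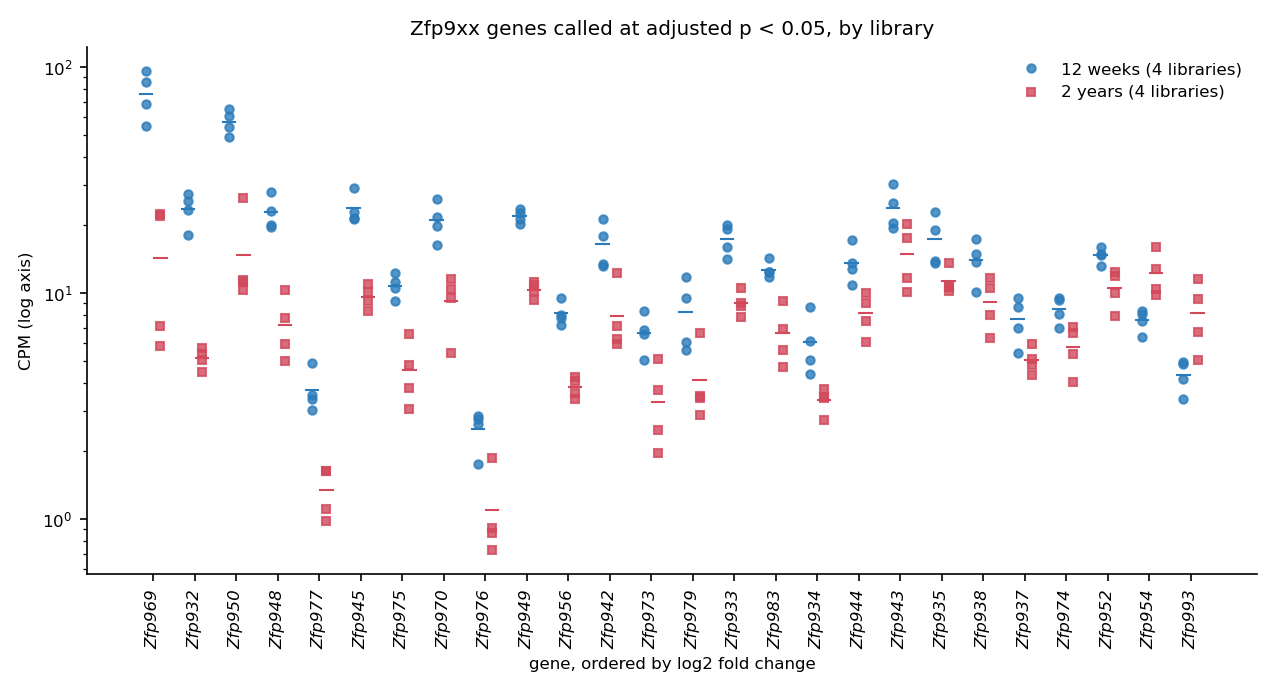
CPM (log axis) of the 26 called Zfp9xx genes in each library, with circles for 12 weeks, squares for 2 years and short lines for the group means. The 24 genes on the left were lower at 2 years, and Zfp954 and Zfp993 on the right were higher.

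Added up, the 65 genes gave 560.8 CPM, 780.5 CPM, 666.9 CPM and 601.1 CPM in the 12-week libraries (replicates 1 to 4) and 467.1 CPM, 395.1 CPM, 377.6 CPM and 345.6 CPM in the 2-year libraries. The lowest 12-week sum was above the highest 2-year sum. Without Zfp969, the most abundant of them, the sums were 506.1 to 684.4 CPM and 339.8 to 445.3 CPM, again without overlap. The median deviation of the tested genes from their mean over the 8 libraries was 0.53 (log2) in replicate 2 at 12 weeks and -0.42 in replicate 3 at 2 years, the highest and the lowest. It was 0.02 in replicate 1 at 12 weeks and 0.03 in replicate 1 at 2 years, so these libraries of different age were close in this measure.

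Zfp932 had the smallest p of the genes that fell. Its product is a KRAB zinc finger protein known, with its close paralog Gm15446, for repression of endogenous retroviruses in embryonic stem cells. Its level was 25.6 CPM, 27.4 CPM, 23.3 CPM and 18.1 CPM at 12 weeks and 5.02 CPM, 5.37 CPM, 5.72 CPM and 4.44 CPM at 2 years. The groups were far apart and the old libraries were within a narrow range. The change was 4.61-fold (log2 fold change -2.20 with an SE of 0.16, adjusted p by edgeR = 2.68e-06). Of its transcript's 100-nt windows, 22.1% also stood in other genes, the closest being Gm15446.

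Zfp950 on chromosome 19, whose transcript shared no window with another gene, was at 54.1 CPM, 65.1 CPM, 60.5 CPM and 49.2 CPM at 12 weeks. At 2 years it was at 11.4 CPM, 10.3 CPM, 26.2 CPM and 11.2 CPM. Replicate 3 at 2 years stood well above the other old libraries and still below every young one. The log2 fold change was -1.97 (SE 0.28, adjusted p by edgeR = 2.69e-04), and it ranged from -2.38 to -1.85 when single libraries were left out.

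Zfp949, also without shared windows, had one of the tightest patterns. It was at 20.3 CPM, 22.6 CPM, 21.3 CPM and 23.4 CPM at 12 weeks and at 10.2 CPM, 9.25 CPM, 11.1 CPM and 10.8 CPM at 2 years. The fall was 2.12-fold (log2 fold change -1.08 with an SE of 0.12, adjusted p by edgeR = 4.68e-05). Zfp956, with 6 finger motifs, fell by a like factor from a lower level, from 8.11 ± 0.96 CPM to 3.82 ± 0.39 CPM (mean ± SD, n = 4 each; log2 fold change -1.08). Neither gene had an old library at the level of a young one.

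**Figure D2:**
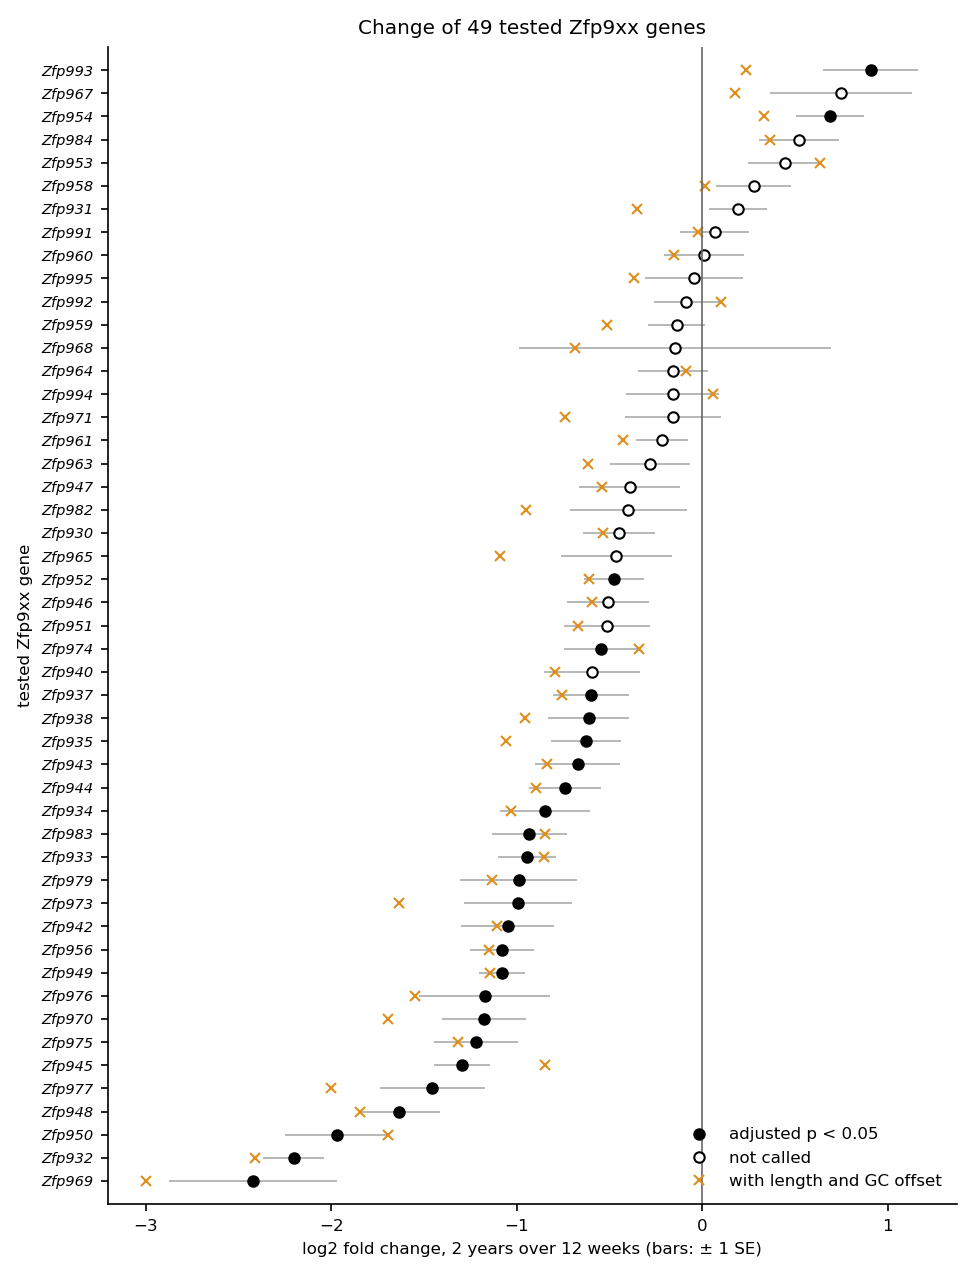
Log2 fold change (2 years over 12 weeks) of the 49 tested Zfp9xx genes with bars of 1 SE; filled circles had an adjusted p below 0.05, and crosses give the value with an offset for transcript length and GC content. Most circles and crosses lie left of 0, and the crosses of Zfp954 and Zfp993 lie nearer to 0 than their circles.

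Zfp969 had the largest fall and the highest level for its length, 31.0 CPM per kb of transcript. It was at 54.6 CPM, 96.0 CPM, 85.4 CPM and 68.9 CPM at 12 weeks and at 21.8 CPM, 7.16 CPM, 22.3 CPM and 5.83 CPM at 2 years (log2 fold change -2.42 with an SE of 0.45, adjusted p by edgeR = 0.00202). The old libraries fell into a higher and a lower pair, both below the young ones. All windows of its transcript also stood in Zfp966, which had 5 counts in all libraries together. Its other near-copies were Zfp967 and Zfp968. Zfp968, named after its values were seen, was at 19.7 CPM, 10.8 CPM, 5.36 CPM and 14.8 CPM at 12 weeks and at 8.67 CPM, 13.3 CPM, 0.260 CPM and 22.9 CPM at 2 years. Its old libraries differed among themselves far more than the ages did, and it was not called (log2 fold change -0.15 with an SE of 0.84). Where the reads of these copies were placed is not known for single genes. The 4 copies Zfp966 to Zfp969 were therefore also summed, which gave 74.7 CPM, 107.9 CPM, 92.0 CPM and 84.7 CPM at 12 weeks and 32.7 CPM, 21.8 CPM, 23.9 CPM and 29.9 CPM at 2 years. The summed level was lower in every old library than in every young one.

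Zfp948 and Zfp945 lie in the chromosome 17 cluster and shared no window with other genes. Zfp948 was at 20.002 CPM, 28.1 CPM, 23.0 CPM and 19.7 CPM at 12 weeks and at 10.3 CPM, 5.93 CPM, 5.01 CPM and 7.71 CPM at 2 years (log2 fold change -1.64 with an SE of 0.22, adjusted p by edgeR = 1.37e-04). Zfp945 was at 21.4 CPM, 29.3 CPM, 22.8 CPM and 21.3 CPM against 10.9 CPM, 10.1 CPM, 8.32 CPM and 9.17 CPM (log2 fold change -1.30 with an SE of 0.15, adjusted p by edgeR = 5.34e-05). In both genes replicate 2 was the highest young library and no values overlapped. Zfp983 of the same cluster fell from 12.7 ± 1.09 CPM to 6.61 ± 1.97 CPM (log2 fold change -0.93, n = 4 each).

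All 10 genes of the chromosome 17 cluster were tested, 6 were lower and all 10 had a log2 fold change below 0, with a median of -0.71. The divergent pair Zfp942 and Zfp943, whose shared upstream stretch is printed above, are among them. Zfp942 fell from 16.4 ± 3.83 CPM to 7.88 ± 2.93 CPM (log2 fold change -1.05) without overlap. Zfp943 was at 20.4 CPM, 30.3 CPM, 24.9 CPM and 19.4 CPM at 12 weeks and at 20.2 CPM, 17.5 CPM, 10.1 CPM and 11.6 CPM at 2 years. One old library of Zfp943 lay within the young range, and its call (log2 fold change -0.67, adjusted p by edgeR = 0.0287) was lost without replicate 2 or 3 at 12 weeks or without replicate 3 or 4 at 2 years, with adjusted p from 0.0611 to 0.0916. The smallest change of the cluster was that of Zfp995, at -0.05 and not called.

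In the chromosome 7 cluster, all 3 tested genes fell. Zfp977 was at 3.41 CPM, 4.89 CPM, 3.51 CPM and 3.04 CPM at 12 weeks and at 1.63 CPM, 1.11 CPM, 0.975 CPM and 1.63 CPM at 2 years (log2 fold change -1.45 with an SE of 0.28). Zfp975 was at 9.17 CPM, 12.2 CPM, 11.1 CPM and 10.5 CPM against 6.59 CPM, 3.80 CPM, 3.06 CPM and 4.79 CPM (log2 fold change -1.22 with an SE of 0.23). Neither gene had overlapping groups. Zfp976 overlapped in its range (log2 fold change -1.17, adjusted p by edgeR = 0.0156). Zfp936, the remaining gene of the cluster, had 0 counts.

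**Figure D3:**
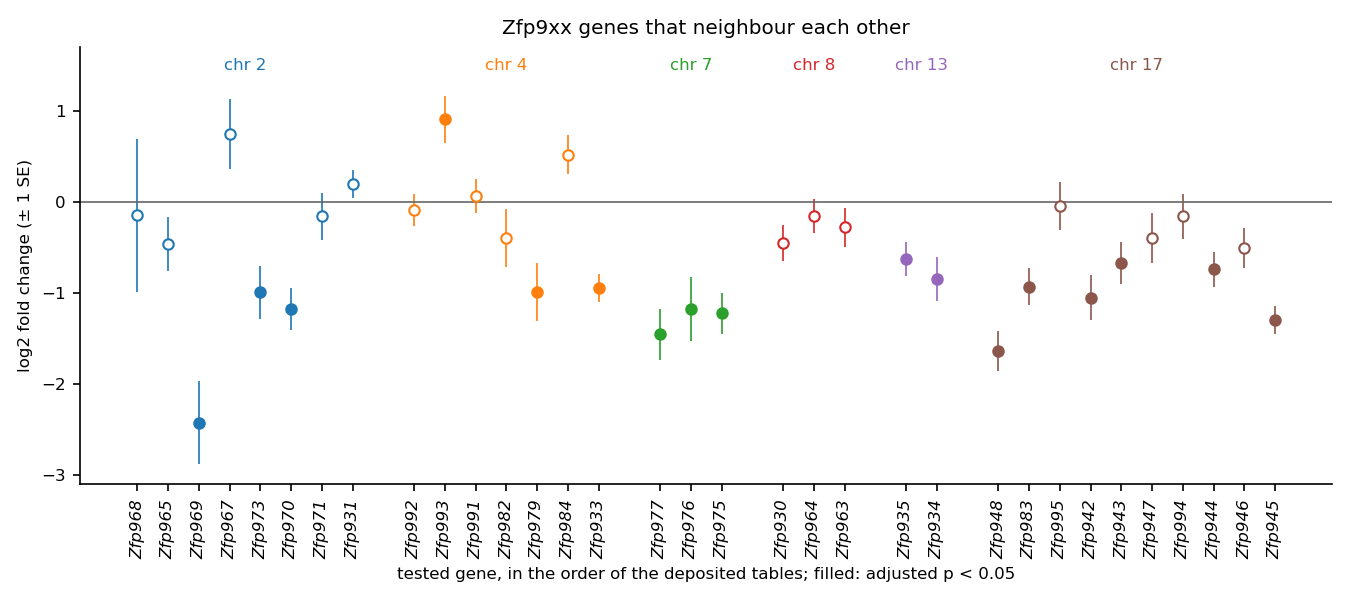
Log2 fold change (± 1 SE) of the 33 tested Zfp9xx genes that lie within 1 Mb of another, ordered along each chromosome as in the deposited tables, with filled circles for an adjusted p below 0.05. All circles of chromosomes 7, 8, 13 and 17 lie below 0, whereas chromosomes 2 and 4 hold circles on both sides.

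In the chromosome 2 cluster, 3 of 8 tested genes were lower, Zfp969, Zfp970 and Zfp973, and the median log2 fold change was -0.31. Zfp970 was at 16.3 CPM, 26.1 CPM, 19.7 CPM and 21.7 CPM at 12 weeks and at 11.5 CPM, 9.51 CPM, 5.40 CPM and 10.4 CPM at 2 years (log2 fold change -1.18 with an SE of 0.23, adjusted p by edgeR = 0.00129). Its groups did not overlap. In the chromosome 4 cluster, 2 of 7 tested genes were lower (Zfp933 and Zfp979), 1 was higher (Zfp993) and the median was -0.09. Zfp933 was at 15.9 CPM, 19.3 CPM, 19.97 CPM and 14.2 CPM against 8.79 CPM, 8.998 CPM, 10.5 CPM and 7.81 CPM (log2 fold change -0.95 with an SE of 0.16, adjusted p by edgeR = 5.32e-04). Its young libraries all lay above the old ones. Both tested genes of the chromosome 13 cluster, Zfp934 and Zfp935, were lower, and none of the 3 of chromosome 8 was called. Of the windows of Zfp935, 99.35% also stood in other genes, mostly Gm49359. Of those of Zfp973, 74.9% did, mostly in Zfp965. The calls of Zfp935 and Zfp973 therefore depend on how reads with several matches were assigned. Of the 16 tested genes without a neighbour of this kind, 8 were lower and 1 was higher, with a median of -0.53. With the length and GC offset described below, the median of the chromosome 2 cluster was -0.92, and 5 of 8 genes were lower. That of the chromosome 4 cluster was -0.02, with 3 of 7 lower and 1 higher. The medians of chromosomes 7, 8, 13 and 17 were then -1.55, -0.54, -1.05 and -0.85. Differences between clusters were not tested.

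Of the genes that rose, Zfp954 shared no window with another gene. It was at 8.08 CPM, 6.39 CPM, 7.55 CPM and 8.35 CPM at 12 weeks and at 12.7 CPM, 16.04 CPM, 10.4 CPM and 9.76 CPM at 2 years (log2 fold change 0.69 with an SE of 0.18, adjusted p by edgeR = 0.00838). Zfp993, with 2 finger motifs, was at 4.94 CPM, 4.16 CPM, 4.85 CPM and 3.41 CPM against 6.70 CPM, 9.42 CPM, 11.6 CPM and 5.03 CPM (log2 fold change 0.91 with an SE of 0.26, adjusted p by edgeR = 0.0121). In both genes all old libraries were above all young ones, in Zfp993 by a narrow margin. Of the windows of Zfp993, 71.9% also stood in other genes, mostly Zfp991. Both calls were lost with the offset for length and GC content described below, where the log2 fold changes were 0.33 for Zfp954 and 0.24 for Zfp993.

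Abundant genes among those not called were Zfp991 and Zfp984 of the chromosome 4 cluster. Of the windows of Zfp991, 73.8% also stood in other genes, mostly Znf41-ps. Of those of Zfp984, 31.2% did, mostly in Gm13212. The levels of both therefore depend on how reads with several matches were assigned. Zfp991 was at 30.1 CPM, 45.2 CPM, 30.6 CPM and 32.0 CPM at 12 weeks and at 43.0 CPM, 28.8 CPM, 43.5 CPM and 29.2 CPM at 2 years (log2 fold change 0.07 with an SE of 0.19). Its old libraries fell into pairs at either end of the young range. Zfp984 was at 12.7 CPM, 21.4 CPM, 17.6 CPM and 16.5 CPM against 34.2 CPM, 24.9 CPM, 21.1 CPM and 17.5 CPM (log2 fold change 0.52, adjusted p by edgeR = 0.0632). The ranges of Zfp984 overlapped, and it was called higher under upper-quartile scaling, with the offset, and without replicate 2 at 12 weeks or replicate 4 at 2 years.

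Sorted by near-identity, 25 tested genes with under 5% shared windows had 13 lower and 1 higher, with a median log2 fold change of -0.59. The 15 genes with 5% to 50% had 8 lower and none higher, with a median of -0.55. The 9 genes with 50% or more had 3 lower and 1 higher, with a median of -0.15. In the same order, the median transcripts of these sets were 2872 nt, 2509 nt and 1458 nt. With the length and GC offset described below, their median log2 fold changes were -0.84, -0.74 and -0.68. Of the promoter block's carriers, 13 were tested, 7 were lower and 0 higher, with a median of -0.99. Of the genes with a promoter sequence and no block, 30 were tested, 15 were lower and 2 higher, with a median of -0.53. Outside the Zfp9xx genes, 26 tested carriers of the block had 9 lower and 1 higher, with a median of -0.36. These differences are descriptions and were not tested.

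Fold changes in this series moved with transcript length. The median log2 fold change was 0.60 in the shortest of 10 length bins of tested genes (median 1031 nt) and -0.64 in the longest (median 8284 nt). The slope of a library's log2 deviations on log2 length was 0.116 to 0.244 at 12 weeks and -0.293 to -0.0957 at 2 years. The tested Zfp9xx genes had a median transcript of 2713 nt and a median GC content of 38.7%, against 3178 nt and 50.2% for all tested genes. Compared with genes of like length, 40 of the 49 were below the median of their length bin, with a median difference of -0.63. With an offset for length and GC content fitted in each library, 35 of the 49 were called, 33 of them lower and 2 higher, with a median of -0.76. Of the 13618 genes in that fit, 50.9% were called in either direction and 22.8% were higher. The 33 held 23 of the 24 genes lower without the offset, all except Zfp974. The 2 higher were Zfp953 and Zfp984, neither of which was called without it.

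**Figure D4:**
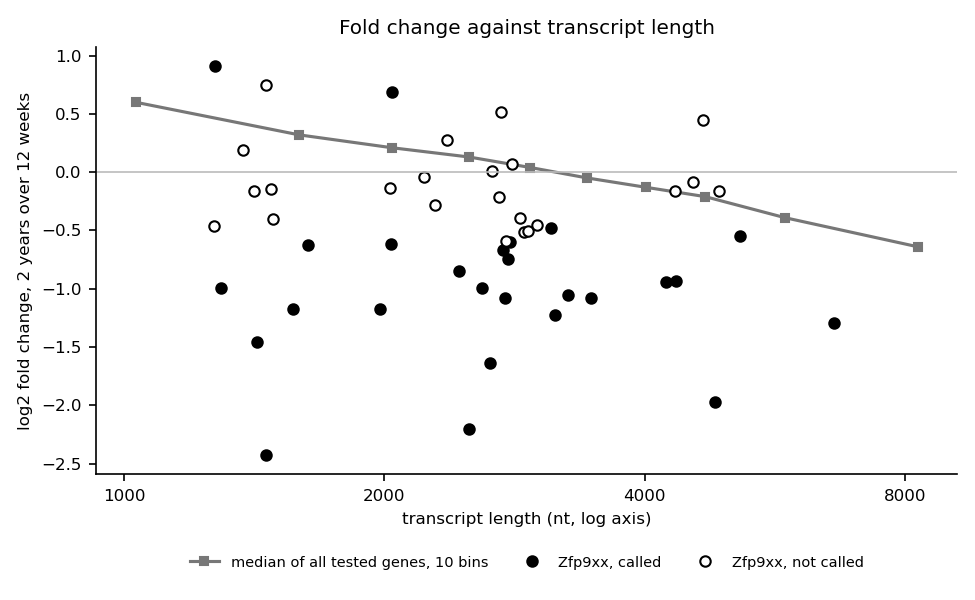
Log2 fold change (2 years over 12 weeks) against transcript length (nt, log axis) for the 49 tested Zfp9xx genes, filled where the adjusted p was below 0.05, with the median of all tested genes in 10 bins of length as squares. The squares go from 0.60 to -0.64 from short to long genes, and 40 of the 49 circles lie below the value of their bin.

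The other Zfp genes with numbered symbols, 286 tested of 305, gave a similar count. Of them 155 were lower and 10 higher, with a median log2 fold change of -0.54 against -0.51 for the Zfp9xx genes. With a KRAB motif, 62 of 118 were lower and 2 higher, and without one 91 of 165 were lower and 8 higher, with medians of -0.54 and -0.53. With the offset the median was -0.49 for the other numbered genes and -0.76 for the Zfp9xx genes. Whether the sets differ was not tested.

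A list of 25 chromatin silencing genes was drawn around the scaffold Trim28 and also holds genes of the HUSH complex. All were tested, 9 were lower and 3 higher, with a median log2 fold change of -0.28. These 12 calls of 25 stand beside 52.0% of all genes called, and the lower and higher ones beside 26.2% and 25.8%, so the share called was near that of all genes. Trim28, the scaffold itself, was at 100.1 CPM, 77.4 CPM, 92.0 CPM and 102.7 CPM at 12 weeks and at 102.7 CPM, 108.8 CPM, 84.4 CPM and 107.7 CPM at 2 years, and was not called (log2 fold change 0.12 with an SE of 0.13). Its groups overlapped in part: replicates 2 and 4 at 2 years were above every young library, and replicate 2 at 12 weeks was below every old one. Setdb1 was at 39.5 CPM, 36.0 CPM, 37.3 CPM and 34.9 CPM against 30.4 CPM, 26.9 CPM, 19.4 CPM and 30.6 CPM (log2 fold change -0.46 with an SE of 0.15, adjusted p by edgeR = 0.0232). All its old libraries were below the young ones, and the call was lost with the offset (log2 fold change -0.31), without replicate 1 or 3 at 12 weeks, and without replicate 3 of both ages (log2 fold change -0.32). Tasor, the core of the HUSH silencing complex, was at 51.5 CPM, 67.3 CPM, 65.5 CPM and 54.8 CPM against 24.3 CPM, 19.3 CPM, 12.1 CPM and 22.5 CPM (log2 fold change -1.61 with an SE of 0.20, adjusted p by edgeR = 7.75e-05). Morc2a, an ATPase that works with HUSH, was at 72.3 CPM, 78.9 CPM, 67.1 CPM and 71.7 CPM against 34.1 CPM, 25.6 CPM, 26.3 CPM and 38.2 CPM (log2 fold change -1.22 with an SE of 0.15, adjusted p by edgeR = 7.04e-05). Neither overlapped between the ages.

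Atf7ip, the partner that stabilises Setdb1, fell from 124.0 ± 13.3 CPM to 72.9 ± 12.1 CPM (log2 fold change -0.77). Dnmt1, the maintenance DNA methyltransferase, fell from 43.7 ± 3.10 CPM to 24.7 ± 7.20 CPM (log2 fold change -0.82). Both remained called with the offset, at -0.23 and -0.45, and neither was called with the offset and a replicate block together, at -0.24 for Atf7ip (adjusted p by edgeR = 0.12) and -0.47 for Dnmt1 (adjusted p by edgeR = 0.0546). Of those that rose, the modifier Sumo2 went from 144.8 ± 23.0 CPM to 213.0 ± 34.6 CPM (log2 fold change 0.56), and its value turned to -0.24, not called, with the offset. The deacetylase Hdac1 (log2 fold change 0.39) and the histone chaperone Daxx (0.43) were not called with the offset, at 0.03 and 0.38. The Daxx call was also lost when any of replicates 1, 2 or 4 at 12 weeks or 1 or 2 at 2 years was left out. With the offset, 8 of 24 genes of the list were called, beside 50.9% of all genes in that fit. Of the 8, 7 were lower and 1 was higher, and the median over the 24 was -0.25. Tasor had no transcript under that symbol in the annotation used and was not in that fit.

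Replicate 3 of each age stood apart in marker sums or in the share of mitochondrial counts. At 12 weeks it had the highest heart muscle sum, 1140 CPM, and at 2 years the highest mitochondrial share, 10.3% against 4.15% to 5.94% in the other old libraries. Its fibroblast markers summed to 5303 CPM against 2141 to 2805 CPM, and its smooth muscle markers to 15616 CPM against 21466 to 24378 CPM. The part of these measures in the calls was not tested. Without both, 16 Zfp9xx genes were lower, all among the 24, and 2 were higher, beside 23.7% and 22.7% of all genes tested. The calls lost were those of Zfp934, Zfp937, Zfp938, Zfp943, Zfp952, Zfp974, Zfp976 and Zfp979. Of the named silencing genes, Setdb1, Sumo2 and Hdac1 were not called without them.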

How the data were processed

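Gene counts of 8 aorta libraries were used as deposited by the authors, as raw whole-number counts per gene symbol, per the labels and the file headers. The submitters' processing notes name the build GRCm39. For the aligner, counting tool, annotation, strand handling and treatment of reads with several matches, names and settings were not given in the sources used here. No gene coordinates of that build were used. Samples were grouped by age from their labels. Counts were scaled by TMM, filtered with filterByExpr and compared between ages by the quasi-likelihood method of edgeR 4.0.16 in R 4.3.3 (robust, no covariate), with Benjamini-Hochberg adjustment over all genes tested and a threshold of 0.05. SE is the absolute log2 fold change divided by the root of its F value. The code was checked on simulated counts. Transcript lengths, GC content, protein motifs, shared windows and neighbours (gaps up to 1 Mb) came from GENCODE M21 (GRCm38), matched by symbol. Promoters came from RefSeq (GRCm38.p6). The length and GC offset used natural splines with 4 degrees of freedom each.

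The genes and lists were chosen with earlier results of these data known. Genes named were up to 12 called per direction with the smallest p, the 6 with the highest mean CPM, the called genes with the 3 largest fold changes per direction, and Trim28, Setdb1 and up to 4 called genes per direction of the silencing list. Others were named to account for members of clusters, for near-copies or for calls that changed. Alternatives were DESeq2 1.42.0, limma 3.58.1 with voom, other scalings and filters, a replicate block, the offset, and leaving out libraries.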

Additional observations from a re-analysis of the deposited data

Results flagged for a closer look

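Among groups of 4 libraries, 54 were looked at for a single stray value (a gap to the nearest library above Dixon's 95% limit for its share of the group's range), and chance flags about 1 in 20 such groups. Zfp950 stood at 26.2 CPM in replicate 3 at 2 years, whereas the other old libraries were at 10.3 to 11.4 CPM. Zfp991 stood at 45.2 CPM in replicate 2 at 12 weeks, with the other young libraries at 30.1 to 32.0 CPM. Sumo2 stood at 179.2 CPM in the same library.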

How the results depend on the processing

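Among the 27 named genes, 15 kept their direction and call in every alternative in which they could be fitted. These were 18 for each gene except Tasor, one of the 15, which had no annotated length and was not in the 2 fits with the offset. The number of lower Zfp9xx genes stayed within 17 to 26 when single libraries were left out, and of higher ones within 2 to 4. The 4 occurred without replicate 2 at 12 weeks and, again, under upper-quartile scaling, in both cases with Zfp953 and Zfp984 added. With the offset and the replicate block together, 1 Zfp9xx gene was higher and 4 genes of the silencing list were called, against 12 before. Leaving out single libraries gave log2 fold changes from -0.03 to 0.22 for Zfp991 and from -0.74 to 0.24 for Zfp968. The change of Zfp991 was -0.02 with the offset, -0.05 with offset and block, -0.03 without replicate 1 or replicate 3 at 2 years and -0.08 without replicate 3 of both ages. That of Sumo2 was -0.24 with the offset, with or without the block. That of Zfp968 was 0.14 without replicate 1 at 12 weeks and 0.24 without replicate 3 at 2 years. The cause of these moves was not tested. Same-numbered libraries did not deviate together (correlations from -0.31 to 0.05), and whether they shared any handling was not tested. With the replicate block, 23 Zfp9xx genes and 6432 genes in all were called, and Hdac1 and Daxx were not. The 12 genes with counts that were not tested had at most 42 counts over all libraries, and 2 of them were called only when no filter was applied.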
